A study of Mus musculus with 5 samples.

Results

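The metallothionein and oxidative stress genes described here are 10 mouse genes taken as a list of names: the metallothioneins Mt1 and Mt2, the zinc exporter gene Slc30a1, the haem oxygenase gene Hmox1, the quinone reductase gene Nqo1, the glutathione synthesis genes Gclm and Gclc, the thioredoxin reductase gene Txnrd1, the sulfiredoxin gene Srxn1 and the ferritin heavy chain gene Fth1. They are 10 of the 41028 gene names in the deposited matrices, and all 10 were measured. No threshold on a measured value chose them, but the list was drawn up with earlier results of these data known. The samples were PyMT mammary tumours, from mice in which the polyoma virus middle T antigen drives tumours of the mammary epithelium. The labels name neither the promoter of that transgene nor the strain or the age of the mice. Cells of digested tumours were profiled on the droplet system 10x Chromium 3' v2 or on the microwell system BD Rhapsody with its whole transcriptome assay. There were 5 libraries: 2 fresh ones on 10x (fresh 10x 1 and 2), 1 on 10x titled 24 h (stored 10x), and 2 on BD Rhapsody. For stored material the digest stayed overnight at 4 °C, and was used once flow cytometry showed a loss of viability of 20% or more. BD 1 is fresh. BD 2 is fresh by its title and 24 h by the names of its files, so it was kept apart and entered no test of storage or platform other than the alternatives that follow its title. Nothing in the labels says that libraries came from separate mice. A p-value then measures the spread between these samples only, which may be technical.

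Metallothioneins are small cysteine-rich proteins that bind zinc and copper, and their genes are switched on by the zinc-sensing factor MTF1 through metal response elements. Slc30a1 is another MTF1 target and exports zinc from the cell. Hmox1, Nqo1, Gclm, Gclc, Txnrd1, Srxn1 and Fth1 are textbook targets of NRF2, a factor that is held back by KEAP1 until oxidants or electrophiles release it and that acts through antioxidant response elements.

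A UMI (unique molecular identifier) stands for 1 captured transcript, and a level is given in CPM, a gene's UMIs per 1000000 UMIs of the same cells. Library totals ranged from 29166129 to 59957945 UMIs, in at most 4186 cells. After clustering without the 10 genes and 76 genes of related pathways, 1267 to 2811 cells per library were epithelial-like. These cells had all 8 epithelial markers detected in each of their 13 clusters and held 3650 to 7080 CPM of them. The summed macrophage markers in them had a median of 11.5 and the T cell markers at 0.769 to 5.34 CPM. In other classes, RNA of 5 epithelial genes (Krt8, Krt18, Epcam, Csn3 and Wfdc18) was at 1.61 to 28.6% of its epithelial-like level in macrophage-like, fibroblast-like, endothelial-like and T-like cells. Median mitochondrial content of epithelial-like cells was 6.67 to 7.41% on 10x and 15.4 to 18.9% on BD Rhapsody. Cell barcodes were hardly shared: 0 to 5 between any 10x libraries and 23 between the BD libraries. Epithelial-like cluster 1 stood apart, with 239 of its 332 cells from fresh 10x 1.

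The bases before an annotated start of each metallothionein gene and the zinc exporter gene are shown because the metal response elements of MTF1 lie in such stretches. RefSeq windows of the GRCm38.p6 assembly (the build called mm10), reaching from 250 bases before to 50 bases after an annotated start, were found for 8 of the 10 genes, in 11 windows. For Mt1, Mt2 and Slc30a1 the 250 bases before the start follow, 5′ to 3′ on the gene's strand, with matches of a searched motif in capitals. They lie at chr8:94178839-94179088 (Mt1, plus strand), chr8:94172368-94172617 (Mt2, plus strand) and chr1:191906531-191906780 (Slc30a1, plus strand). The stretches of Mt1 and Slc30a1 reach into the annotated gene spans, which begin at chr8:94178883 and chr1:191906697. Their window start is thus not the first base of the gene span, and only the Mt2 stretch ends just before its gene.
Mt1: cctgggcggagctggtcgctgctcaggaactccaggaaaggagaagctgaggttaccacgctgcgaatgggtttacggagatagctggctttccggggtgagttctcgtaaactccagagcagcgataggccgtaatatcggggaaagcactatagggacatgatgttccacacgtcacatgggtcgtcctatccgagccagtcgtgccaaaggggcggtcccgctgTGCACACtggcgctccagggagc
Mt2: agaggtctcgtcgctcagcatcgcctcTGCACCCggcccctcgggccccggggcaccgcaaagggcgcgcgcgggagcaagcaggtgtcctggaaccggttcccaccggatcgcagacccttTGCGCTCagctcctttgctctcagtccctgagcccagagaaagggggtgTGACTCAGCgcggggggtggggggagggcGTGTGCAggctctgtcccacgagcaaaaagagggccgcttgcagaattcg
Slc30a1: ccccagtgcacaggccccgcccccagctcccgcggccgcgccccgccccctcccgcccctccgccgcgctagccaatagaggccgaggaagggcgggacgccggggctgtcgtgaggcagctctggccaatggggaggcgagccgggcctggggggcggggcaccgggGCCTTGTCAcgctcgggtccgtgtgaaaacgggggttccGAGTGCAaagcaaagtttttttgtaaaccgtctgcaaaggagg
Mt1 and Mt2 are neighbours on chromosome 8, with 5315 bases between their annotated ends (Mt2 at chr8:94172618-94173567 and Mt1 at chr8:94178883-94180327).

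Both strands of each window were searched for the core of the metal response element, TGCACNC or TGCGCNC, and for the core of the antioxidant response element, TGACNNNGC. A metal response core in either spelling was in 25.7% of 32851 windows of this length, and an antioxidant response core in 12.4%. Mt1 had 3 metal response cores, of which TGCACAC stands in capitals above and the other two lie after the start, and 0 antioxidant response cores. Mt2 had 4 metal response cores, 3 of them shown above, and the antioxidant response core TGACTCAGC. Slc30a1 had 2 metal response cores, of which the one before the start reads GAGTGCA on this strand, and 1 antioxidant response core, which reads GCCTTGTCA. Gclm had 3 metal response cores and 1 antioxidant response core, and its core at bases -138 to -132 overlaps the antioxidant response core at -134 to -126. At least 3 metal response cores were in 1.97% of all windows and at least 4 in 0.517%. Srxn1 had 1 of each core, 1 of the 3 windows of Txnrd1 had an antioxidant response core, and the windows of Nqo1 and Fth1 had neither. Hmox1 and Gclc had no window. A match of letters is a description and not a binding site.

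Metallothionein RNA was higher in the stored 10x library than in either fresh one. In epithelial-like cells, Mt1 stood at 588 CPM in fresh 10x 1, 606 in fresh 10x 2 and 1605 in stored 10x. Mt2 stood at 76.0, 95.5 and 274 CPM in the same libraries. The fresh libraries lay close together, at 597 ± 12.7 (SD, n = 2) for Mt1 and 85.7 ± 13.8 (SD, n = 2) for Mt2, and the stored library lay far above both. By edgeR's quasi-likelihood test, with Benjamini-Hochberg adjustment over all genes tested, Mt1 rose 2.71-fold (log2 1.44 ± 0.12 SE, adjusted p = 0.031) and Mt2 rose 3.23-fold (log2 1.69 ± 0.14 SE, adjusted p = 0.031). These were the 2 members called of 10 tested, against 25 called of all 13992 genes, or 0.179%, 24 of them higher and 1 lower. DESeq2, whose scaling differs, called 120 genes higher and 55 lower, with the same 2 members among them. The median log2 difference of the 10 members was -0.04 and that of all genes tested 0.00. With fresh 10x alone replicated, the spread rests on 1 residual degree of freedom. Stored 10x is 1 library, so storage and sample cannot be told apart. Here and below, a storage difference, a rise or a fall means stored 10x against fresh 10x only.

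Beside this difference, the libraries also differed in other measures. In epithelial-like cells the 10 dissociation genes (Fos, Jun and other early stress genes) summed to 13030 and 14580 CPM in the fresh libraries and to 11490 in the stored one. All 10 of them were tested and 0 passed the test (edgeR, adjusted p under 0.05). Fibroblast markers summed to 86.4 and 75.1 CPM in the fresh and 133 in the stored library, and macrophage markers to 6.87, 8.14 and 14.9. Plasma cell markers summed to 0.169, 0.162 and 21.9, erythroid markers to 3.67, 14.1 and 19.6, and neutrophil markers to 485, 544 and 386 CPM. Their part in the result was not tested.

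The rise of the metallothioneins was seen within clusters of epithelial-like cells too. In 11 clusters with enough cells in each 10x library, stored 10x lay above both fresh libraries in 11 for Mt1 and in 10 for Mt2, and the exception for Mt2 was cluster 4. The ratio of stored to mean fresh level had a median of 2.52 for Mt1 (range 1.37 to 3.55) and of 3.28 for Mt2 (range 1.12 to 5.57). Clusters hold cells of the same libraries and are not replicates. Without cluster 1 both genes were still called.

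**Figure D1:**
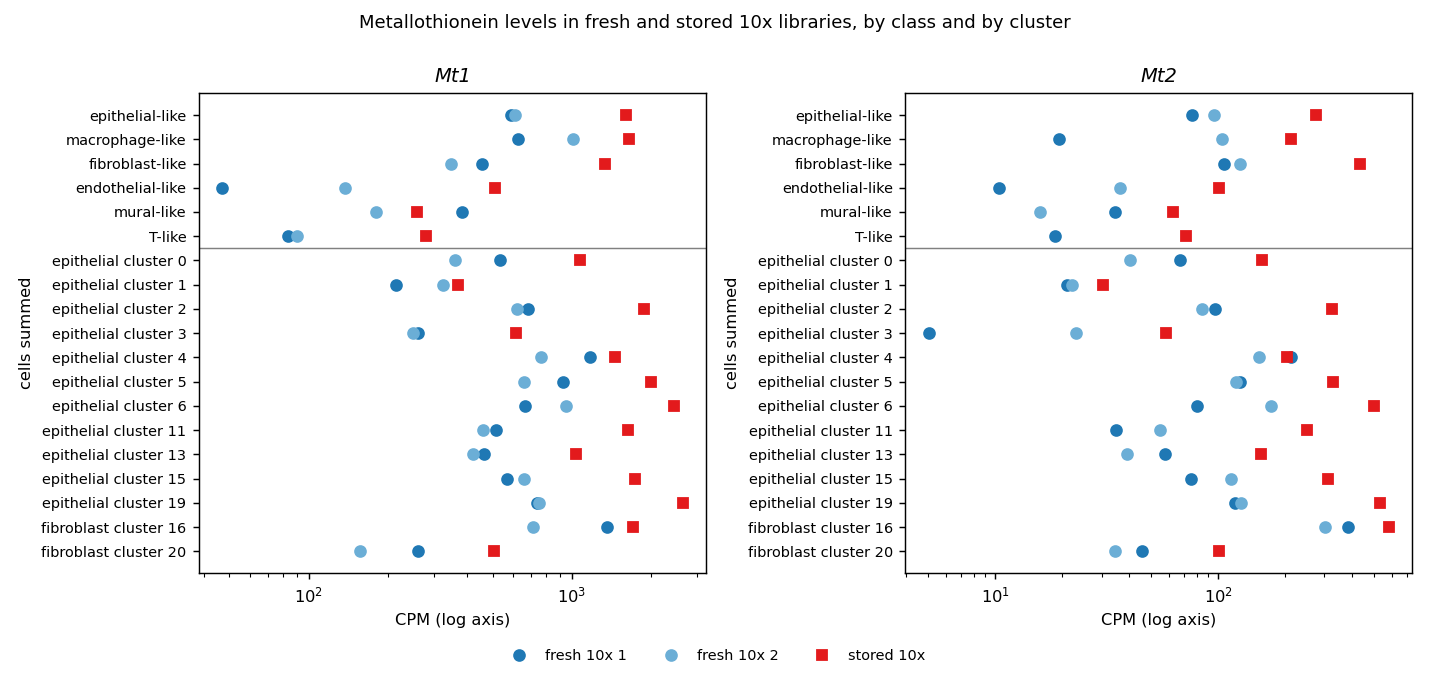
Levels of Mt1 (left) and Mt2 (right) in CPM on a log axis, summed over the cells of each class (upper part) and of each epithelial-like or fibroblast-like cluster (lower part), for fresh 10x 1, fresh 10x 2 and stored 10x. Stored 10x lies to the right of both fresh libraries in every line but mural-like cells for Mt1 and epithelial-like cluster 4 for Mt2. T-like cells of fresh 10x 2 had 0 Mt2 UMIs and are not drawn.

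Over whole libraries, Mt1 stood at 542 and 573 CPM in fresh 10x 1 and 2 and at 1539 in stored 10x. It was the 1 member called (log2 1.52 ± 0.10 SE, edgeR adjusted p = 0.049), where 20 of 15298 genes, or 0.131%, were called, 15 higher and 5 lower. DESeq2 called 195 genes higher and 213 lower. Mt2 differed by a similar amount (log2 1.78 ± 0.16 SE) with an edgeR adjusted p of 0.074. By DESeq2 it was called (adjusted p = 9.48e-15), which was 1 of its 6 alternatives, and the others gave up to 0.214. The call of Mt1 over whole libraries lay close to the threshold. Its edgeR adjusted p was 0.13 with no filter on low counts, and 0.062 and 0.079 without fresh 10x 1 and without fresh 10x 2. Over all alternatives it ranged from 7.04e-15 to 0.133.

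In fibroblast-like cells Mt1 stood at 457 and 346 CPM in fresh 10x 1 and 2 and at 1332 in stored 10x, and Mt2 at 106, 126 and 435. Both rose by edgeR's test, Mt1 by 1.73 ± 0.17 (log2, SE, adjusted p = 1.4e-06) and Mt2 by 1.92 ± 0.17 (log2, SE, adjusted p = 3.8e-07). Nqo1 was the third member called of 10 tested, where 1449 of 11267 genes, or 12.9%, were called. Fth1 was called only with no filter on low counts (log2 0.37, edgeR adjusted p = 0.040), where 1784 of 16911 genes, or 10.5%, were called. The fibroblast-like cells are of 2 clusters whose mix differed. Cluster 16 (led by Clec3b, Dpt and Efemp1) and cluster 20 (led by Postn, Cilp and Col8a1) held 51 and 162 cells in the first fresh library, 48 and 79 in the second and 268 and 92 in the stored one. Mt1 was higher in cluster 16 than in cluster 20 in all 5 libraries, for example at 1355 against 260 CPM in fresh 10x 1. Within cluster 16 alone the storage difference of Mt1 was 0.75 (log2, edgeR adjusted p = 0.0032) and within cluster 20 alone 1.25 (log2, edgeR adjusted p = 0.000484). For Mt2 they were 0.81 (edgeR adjusted p = 0.011) and 1.30 (edgeR adjusted p = 0.000921). Within either cluster both genes still rose, by less than over the mixed class.

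Nqo1 was low in fibroblast-like cells, with 5, 3 and 39 UMIs in fresh 10x 1, fresh 10x 2 and stored 10x, or 1.89, 1.54 and 9.70 CPM. Its difference was 2.46 ± 0.60 (log2, SE, edgeR adjusted p = 0.0098). Within cluster 20 alone the edgeR adjusted p was 0.10, and in cluster 16 alone the gene was not tested. Over its alternatives the adjusted p ranged from 0.000375 to 0.104. The 5 epithelial background genes in these fibroblast-like cells stood at 1.61, 1.73 and 11.9% of their epithelial-like level in the same libraries. Those shares of the epithelial-like level of Nqo1 come to 0.732, 0.682 and 6.56 CPM, which is below the measured level in each library. The part of background RNA in the result was not tested.

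In T-like cells Mt1 had 27, 20 and 120 UMIs in fresh 10x 1, fresh 10x 2 and stored 10x, or 83.8, 90.3 and 279 CPM. It was the 1 member called of 6 tested (log2 1.76 ± 0.36 SE, edgeR adjusted p = 0.0086), where 43 of 5248 genes, or 0.819%, were called. Without fresh 10x 1 the adjusted p was 0.70 and without fresh 10x 2 it was 0.78, with 0 genes called by edgeR in either fit and 537 and 471 genes at an unadjusted p under 0.05. Background shares of 9.29, 9.19 and 15.5% of the epithelial-like level come to 54.6, 55.7 and 249 CPM of Mt1 in these cells. The measured level exceeded that share in all 5 libraries, by the smallest ratio in BD 1, and the part of background RNA in the rise was not tested.

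In macrophage-like cells the fresh libraries differed from each other, with Mt1 at 624 and 1006 CPM against 1653 in stored 10x, and 0 of 10 members and 0 of 8310 genes (0%) were called by edgeR, with 401 genes at an unadjusted p under 0.05. Among 3 alternatives there, Mt1 was called without fresh 10x 2 (edgeR adjusted p = 0.0096), Mt2 without fresh 10x 2 (0.0019) and with no filter on low counts (0.0015), and Nqo1 with no filter (0.019). In endothelial-like cells Mt1 stood at 47.0 and 138 CPM in the fresh libraries and 510 in stored 10x (log2 2.57 ± 0.53 SE, edgeR adjusted p = 0.28), and 0 of 9 members tested and 0 of 8916 genes (0%) were called, with 937 at an unadjusted p under 0.05. Mt1 was called in endothelial-like cells with no filter on low counts, and also without fresh 10x 1 and without fresh 10x 2, in fits that take the spread from the BD libraries (edgeR adjusted p of at most 0.000268). DESeq2 was not run on these classes. In mural-like cells Mt1 stood at 384, 181 and 259 CPM, so stored 10x lay between the fresh libraries, and 0 of 5 members tested were called, where 34 of 5974 genes, or 0.569%, were.

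Whether the storage difference itself differed between classes was tested by the interaction with epithelial-like cells as the reference. None of the 10 members was called by edgeR in any of the 5 classes with its filter on low counts. The genes called among 12042 were 12 (0.0997%) for macrophage-like, 238 (1.98%) for fibroblast-like, 3 (0.0249%) for endothelial-like, 1 (0.0083%) for mural-like and 1 (0.0083%) for T-like cells. The interaction of Mt1 was -0.39 ± 0.55 for macrophage-like, 0.24 ± 0.54 for fibroblast-like, 1.05 ± 0.58 for endothelial-like, -1.66 ± 0.69 for mural-like and 0.30 ± 0.67 for T-like cells (log2, SE). With standard errors this wide, a missed threshold does not show that the classes responded alike. The lowest adjusted p of a member was 0.097, for Nqo1 in fibroblast-like cells (log2 2.05 ± 0.59 SE, edgeR). It was 0.015 with no filter on low counts. Also with no filter, 1 member was called lower in mural-like cells, where 14 of 21283 genes, or 0.0658%, were called. Stored 10x held 27 mural-like cells, which had 0 UMIs of Hmox1, Nqo1 and Slc30a1.

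On BD Rhapsody both metallothioneins were higher than on 10x, and Mt2 by far more than Mt1. In epithelial-like cells Mt1 stood at 2246 CPM in BD 1 and 2113 in BD 2, and Mt2 at 1172 and 1446. No fresh 10x value came near these. BD 1 against fresh 10x gave 1.76 ± 0.12 for Mt1 (log2, SE, edgeR adjusted p = 0.00031) and 3.62 ± 0.15 for Mt2 (log2, SE, edgeR adjusted p = 6.8e-05). This comparison has the same 2 fresh 10x libraries as the storage comparison. It called 6 of the 10 members where 6269 of 14370 genes, or 43.6%, were called, so that a call is common among all genes. The median log2 difference was 0.45 over the members and 0.01 over all genes tested. The platforms differ in chemistry, in depth and in mitochondrial content, and BD 1 is 1 library, so platform and sample cannot be told apart.

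The makeup of the metallothionein RNA also differed between platforms. In epithelial-like cells Mt2 gave 11.4% of the UMIs of Mt1 and Mt2 together in fresh 10x 1, 13.6% in fresh 10x 2 and 14.6% in stored 10x, against 34.3% in BD 1 and 40.6% in BD 2. Exact binomial 95% intervals, which cover counting error only, ran from 13.1 to 14.1% in fresh 10x 2 and from 34.0 to 34.5% in BD 1. All 3 libraries on 10x lay below both on BD Rhapsody. In fibroblast-like cells the share was 18.8, 26.7 and 24.6% on 10x and 48.8 and 53.0% on BD Rhapsody. In macrophage-like cells it was 3.0, 9.38 and 11.4% on 10x and 27.4 and 23.8% on BD Rhapsody. Within every library, fibroblast-like cells had a larger Mt2 share than epithelial-like and macrophage-like cells.

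**Figure D2:**
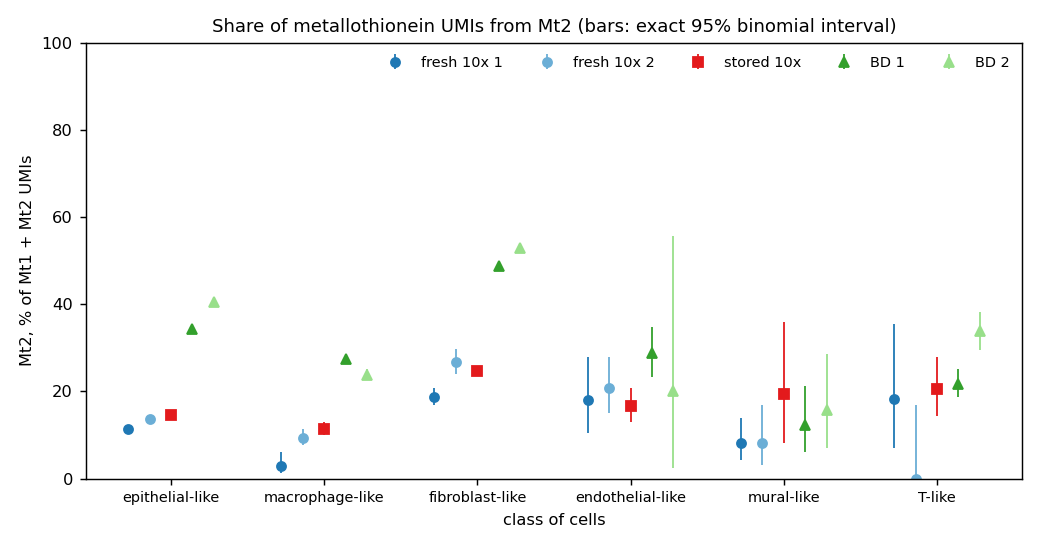
Percent of the UMIs of Mt1 and Mt2 together that came from Mt2, by class of cells and library, with exact binomial 95% intervals. In epithelial-like cells the 10x libraries lie at 11.4 to 14.6% and the BD libraries at 34.3 and 40.6%, and in fibroblast-like cells both groups lie higher. Wide bars mark classes with few UMIs.

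BD 2 and BD 1, set side by side with no test, differed less in the metallothioneins of epithelial-like cells than in those of some other classes. In epithelial-like cells the ratio of BD 2 to BD 1 was 0.941 for Mt1 (counting interval 0.932 to 0.95) and 1.23 for Mt2 (1.22 to 1.25), and both intervals exclude 1. In macrophage-like cells it was 0.669 for Mt1 and 0.555 for Mt2, in T-like cells 0.550 for Mt1, and in endothelial-like cells 0.256 for Mt1, from 8 UMIs in BD 2. Of the 8236 genes with a mean of at least 10 CPM, 0.534% differed by more than 1.5-fold, and 1 of the 10 members did, Hmox1 at 0.657 (0.597 to 0.724). BD 1 holds a cell with far more Hmox1 than the others, at 49.4 UMIs per 10000 in that cell.

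Slc30a1, the zinc exporter gene, did not pass the storage or platform test. Its epithelial-like level was 6.62 and 9.47 CPM in the fresh 10x libraries, 7.36 in the stored one and 12.2 and 10.2 on BD Rhapsody (BD 1 and BD 2). Stored 10x lay between the fresh libraries (log2 difference -0.11 ± 0.24 SE, edgeR adjusted p = 0.86).

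None of the 7 NRF2 target genes was called for storage in epithelial-like cells by edgeR with both fresh libraries. Nqo1, which reduces quinones, stood at 45.5 and 39.4 CPM in fresh 10x 1 and 2 and at 55.1 in stored 10x (log2 0.39 ± 0.14 SE, edgeR adjusted p = 0.27). It was called in 1 of its 8 alternatives, the one without fresh 10x 1 (log2 0.51). That fit takes its spread from the BD libraries. Srxn1, which repairs oxidised peroxiredoxins, stood at 6.49, 6.03 and 8.55 (log2 0.46 ± 0.19 SE, edgeR adjusted p = 0.32). For both the stored value lay above the fresh pair, with a margin that did not pass the test. Hmox1, which breaks down haem, stood at 19.8, 13.0 and 16.3 CPM, with the stored library between the fresh ones. Gclm and Gclc, the modifier and the catalytic subunit of the enzyme that starts glutathione synthesis, stood at 82.1, 86.5 and 74.8 and at 14.7, 14.8 and 12.4 CPM. Txnrd1, which keeps thioredoxin reduced, stood at 74.4, 65.5 and 65.8. The ferritin heavy chain gene Fth1, whose product stores iron, stood at 6844, 5320 and 5220 CPM, and its fresh libraries differed from each other by more than fresh 10x 2 differed from stored 10x. The differences of these 5 genes ran from -0.24 to 0.00 on the log2 scale, with adjusted p-values of 0.43 to 1.00.

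**Figure D3:**
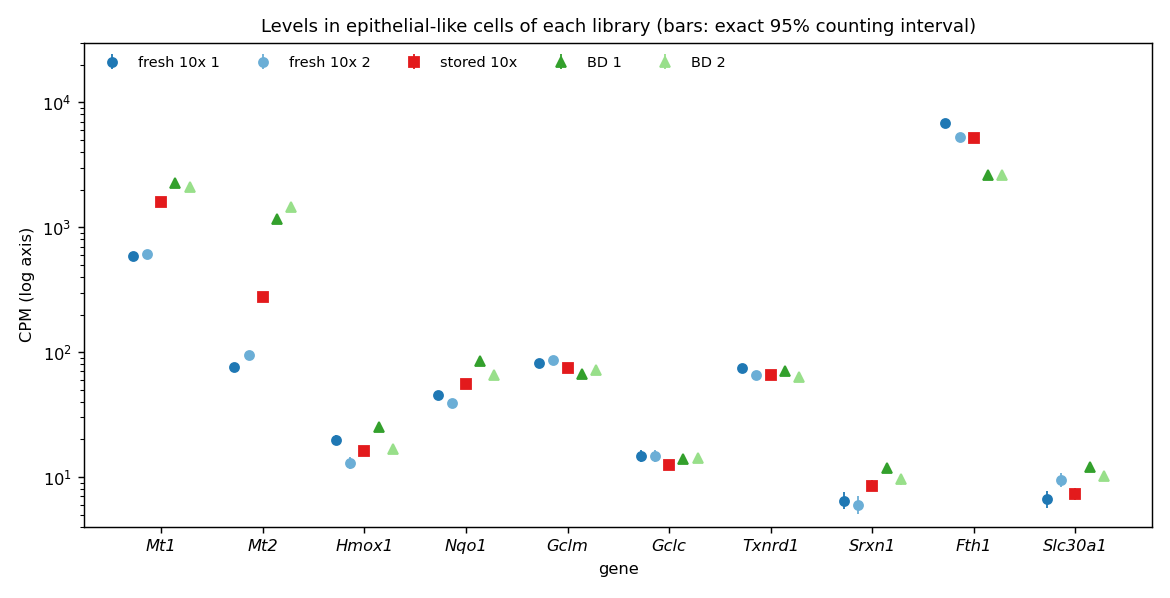
Levels of the 10 genes in epithelial-like cells in CPM on a log axis, a point per library with its exact 95% counting interval. Mt1 and Mt2 rise from the fresh 10x to the stored 10x and BD libraries, Fth1 is lower in the BD libraries (2619 and 2642) than on 10x (5220 to 6844), and the other genes differ less between libraries than Mt1 and Mt2.

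On BD Rhapsody 4 further members passed the test in epithelial-like cells. Nqo1 stood at 84.4 CPM in BD 1 and 65.2 in BD 2, above all 10x libraries (BD 1 against fresh 10x, log2 0.83 ± 0.13 SE, edgeR adjusted p = 0.0036). Srxn1 stood at 11.7 and 9.60 (log2 0.75 ± 0.18 SE, edgeR adjusted p = 0.018), and its adjusted p was 0.13 by DESeq2. Gclm stood at 66.5 and 72.3, below all 10x libraries (log2 -0.50 ± 0.11 SE, edgeR adjusted p = 0.012). Fth1 stood at 2619 and 2642 (log2 -1.37 ± 0.22 SE, edgeR adjusted p = 0.0039). Fth1 has near-identical pseudogene copies, among them Fth-ps2 and Fth-ps3 in the deposited gene lists, and counting that splits reads among them could differ between platforms, so its level is uncertain. Hmox1, Gclc, Txnrd1 and Slc30a1 were not called, with log2 differences of -0.25 to 0.47. The difference of Hmox1 was 0.81 without fresh 10x 1 and 0.16 without fresh 10x 2 (log2, no test).

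The members were also compared between classes of cells, with library as a block in edgeR's test over all 5 libraries. From 54.6 to 68.8% of all genes were called in these comparisons, so a count of members called says little by itself. Macrophage-like cells had 5 members higher and 2 lower than epithelial-like cells of the same libraries, where 7459 of 12271 genes, or 60.8%, were called. Hmox1 stood at 88.3, 198, 106, 321 and 159 CPM in macrophage-like cells of fresh 10x 1, fresh 10x 2, stored 10x, BD 1 and BD 2. In epithelial-like cells it stood at 13.0 to 25.3 CPM. The groups did not overlap (log2 3.40 ± 0.18 SE, edgeR adjusted p = 1.3e-14). Fth1 stood at 12560, 10680, 10600, 7281 and 5736 CPM and was higher by 1.24 ± 0.16 (log2, SE, edgeR adjusted p = 2.8e-07). Ftl1, the gene of the light chain of ferritin, and Slc40a1, the gene of the iron exporter ferroportin, were higher too, by 2.23 and 1.91 (log2, edgeR adjusted p = 2.7e-15 and 3.2e-08). Other iron and haem genes went the other way, with Cp at -2.88 and Tfrc at -2.03 (log2). Of 12 listed, 7 were higher and 3 lower. Srxn1, Slc30a1 and Gclc were higher by 1.23, 1.14 and 1.11 (log2), but with the 10x libraries alone these 3 were not called (edgeR adjusted p = 0.12, 0.23 and 0.076). Nqo1 was lower by -2.56 ± 0.30 (log2, SE, edgeR adjusted p = 6.2e-08), with 0, 3, 24, 18 and 28 UMIs. In 3 of the 5 libraries its level did not exceed the background share of the epithelial-like level. Mt1 and Mt2 were not called with all 5 libraries. Mt2 (log2 -0.54, edgeR adjusted p = 0.11) was called lower in 4 of 10 alternatives: with no filter on low counts (-0.78), with stricter cell limits (-0.66), at the finer clustering (-1.47) and without fresh 10x 2 (-0.91), with adjusted p-values over all 10 of 0.000236 to 0.644.

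Fibroblast-like cells were higher in Hmox1 and Srxn1 and lower in Nqo1, Gclm and Txnrd1, where 8444 genes, or 68.8%, were called. Srxn1 stood at 18.9, 20.6, 21.4, 37.7 and 31.1 CPM in fresh 10x 1, fresh 10x 2, stored 10x, BD 1 and BD 2, against 6.03 to 11.7 in epithelial-like cells, with no overlap (log2 1.70 ± 0.18 SE, edgeR adjusted p = 7.3e-09). Hmox1 was higher by 1.59 ± 0.17 (log2, SE, edgeR adjusted p = 8.9e-09). Nqo1 was lower by -3.30 ± 0.27 (log2, SE, edgeR adjusted p = 2.9e-11). Gclm and Txnrd1 were lower by -0.90 and -0.73 (log2). Mt1 (log2 -0.35, edgeR adjusted p = 0.22) and Mt2 (log2 0.55, edgeR adjusted p = 0.077) were not called with all 5 libraries. Mt1 was called lower in 3 of 10 alternatives, with no filter on low counts (-0.57), with stricter cell limits (-0.49) and at the finer clustering (-0.59), with adjusted p-values over all 10 of 0.00226 to 0.563. Mt2 was called higher in 1 of 10, with the 10x libraries alone (0.72, edgeR adjusted p = 0.028, range 0.0282 to 0.402).

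Endothelial-like cells had the highest Slc30a1 level of the classes compared and among the lowest metallothionein levels, where 7017 genes, or 57.2%, were called. Slc30a1 stood at 42.1, 33.2, 28.5, 72.4 and 72.9 CPM in fresh 10x 1, fresh 10x 2, stored 10x, BD 1 and BD 2, and BD 2 held 13 such cells. It was higher than in epithelial-like cells by 2.19 ± 0.21 (log2, SE, edgeR adjusted p = 2e-09), and its ratio of 3.51 to 7.14 lay apart from that of the next class, macrophage-like cells, at 1.06 to 2.59. Mt1 was lower by -2.75 ± 0.28 and Mt2 by -2.61 ± 0.33 (log2, SE, edgeR adjusted p = 5e-09 and 2.1e-07), and Nqo1, Gclm and Fth1 were lower as well, where Gclm was not called with the 10x libraries alone (edgeR adjusted p = 0.077). Hmox1 was higher by 0.79 ± 0.24 (log2, SE, edgeR adjusted p = 0.006), and its adjusted p was 0.057 without fresh 10x 2.

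T-like cells had 6 members lower and 0 higher, where 6703 genes, or 54.6%, were called. Mt1, Mt2, Hmox1 and Nqo1 were lower by -2.47, -2.65, -3.45 and -2.31 (log2, edgeR adjusted p = 4.1e-08, 4.8e-07, 6e-06 and 6.1e-06), Fth1 by -1.07 and Srxn1 by -1.36. Hmox1 had 0, 0, 1, 2 and 2 UMIs in the T-like cells of fresh 10x 1, fresh 10x 2, stored 10x, BD 1 and BD 2. Srxn1 was not called with the 10x libraries alone (edgeR adjusted p = 0.073), without stored 10x (0.086) or without BD 2 (0.10). This class holds T and natural killer cell markers together, and in BD 1 it also held 12830 CPM of plasma cell markers, against 36.1 to 128 in the other libraries. Mt1, Mt2, Hmox1, Nqo1 and Fth1 were called lower in all 10 alternatives, among them the one without BD 1. The median of all genes in this comparison was -0.19 with TMM scaling and -0.03 with DESeq2's size factors (log2), and the 6 called members lay below both. Fewer UMIs of a gene in a class and fewer cells of that class that carry it cannot be told apart in these summed values.

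**Figure D4:**
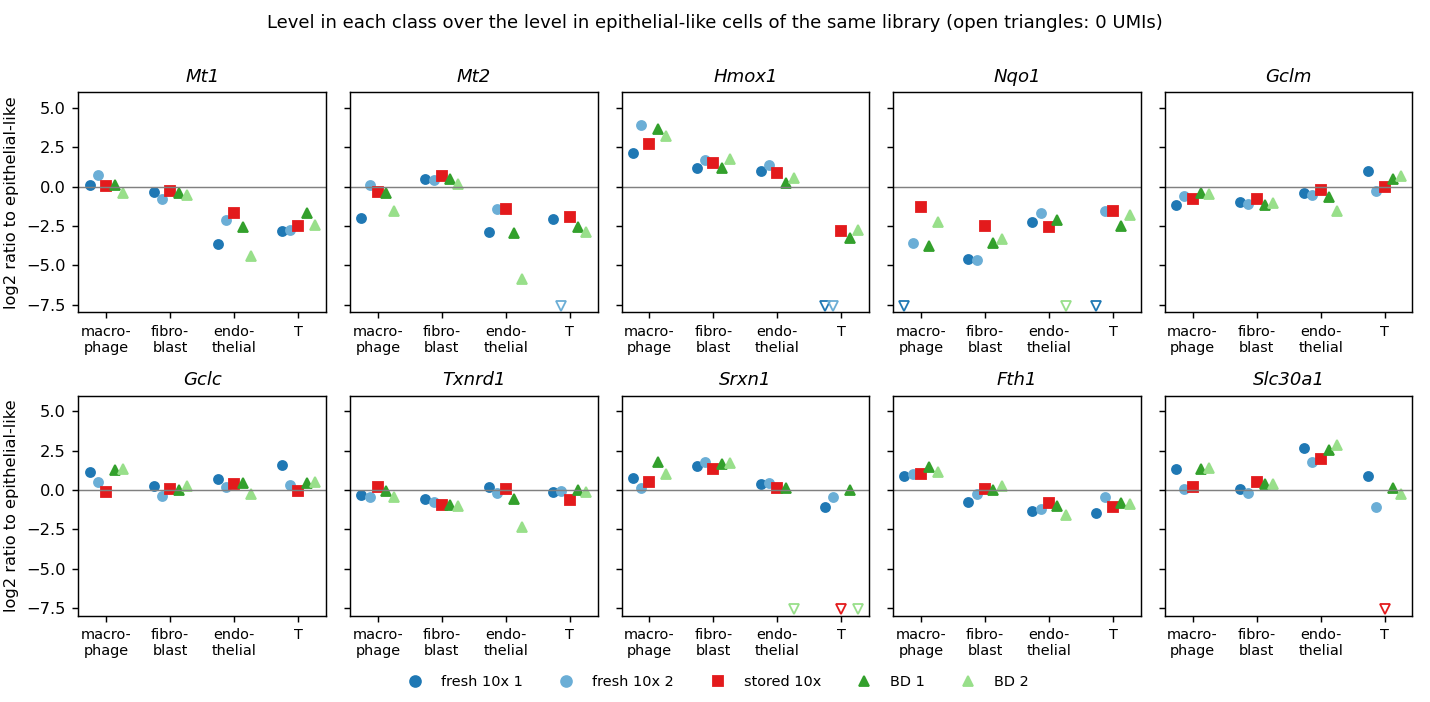
The log2 ratio of each gene's level in macrophage-like, fibroblast-like, endothelial-like and T-like cells to its epithelial-like level within each library, a point per library, with open triangles at the lower edge for 0 UMIs. Hmox1 lies above 0 in every library in the macrophage-like, fibroblast-like and endothelial-like classes, Slc30a1 lies highest in endothelial-like cells, and Nqo1 lies below 0 in every class drawn.

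The order of classes differed from gene to gene. For Mt1 the mean ratio to epithelial-like cells was 1.11 in macrophage-like, 0.726 in fibroblast-like, 0.398 in mural-like, 0.193 in T-like and 0.168 in endothelial-like cells, and the ranges of neighbours in that order overlapped. For Mt2 it was 1.37 in fibroblast-like, 0.645 in macrophage-like, 0.243 in mural-like, 0.207 in endothelial-like and 0.163 in T-like cells. The fibroblast-like ratios, 1.13 to 1.59, lay wholly above the epithelial-like level and above the macrophage-like ratios, 0.254 to 1.09, and the later neighbours overlapped. For Hmox1 it was 9.69 in macrophage-like, 2.83 in fibroblast-like, 1.80 in endothelial-like, 0.597 in mural-like and 0.0796 in T-like cells. For Nqo1 epithelial-like cells stood first, and every other class had a mean ratio of 0.559 or less. Neutrophil-like cells numbered 2 to 12 per library and are not described further.

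Within the epithelial-like cells the metallothioneins were uneven from cell to cell. The tenth of cells with the most Mt1 held 33.4 to 40.2% of its UMIs across libraries, and the tenth with the most Mt2 held 46.7 to 54.6%. Median Mt1 per cell was 2.92 and 3.59 UMIs per 10000 in the fresh 10x libraries, 7.89 in the stored one and 9.25 and 8.23 on BD Rhapsody. After each cell was thinned to 2000 UMIs, which kept 1318, 1248, 2549, 2492 and 2811 cells, 49.3 to 76.0% of cells had an Mt1 UMI and 11.4 to 45.6% an Mt2 UMI. Without thinning these shares were 84.9 to 96.8% and 37.8 to 76.4%. The stored 10x share after thinning was 72.2% for Mt1, against 49.3 and 53.3% in the fresh libraries. Fth1 had a UMI in 90.7 to 98% of thinned cells. Nqo1, Gclm and Txnrd1 had one in 8.21 to 15.9% of them, and Hmox1, Gclc, Srxn1 and Slc30a1 in at most 4.09%. In T-like cells thinned alike, Hmox1 was in 0 to 0.447% of cells, Nqo1 in 0 to 2.33% and Mt1 in 6.50 to 36.8%. Median depth was 2513 to 5774 UMIs in T-like and 11273 to 14481 in epithelial-like cells.

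Mt1 and Mt2 varied together across epithelial-like cells, with Pearson's r of log levels of 0.615 to 0.790 in the 5 libraries. No other pair of members came near that. Mt1 had r of 0.152 to 0.215 with Fth1, 0.0953 to 0.124 with Gclm and -0.0568 to -0.0128 with Nqo1. Fth1 had r of -0.416 to -0.261 with the mitochondrial percent of a cell. Mt1 had r of 0.106 to 0.327 with the log of a cell's UMIs and -0.00212 to 0.159 with the dissociation genes. Cells of a library share its depth and handling, so these values are a description, and in counts this sparse a weak r is no finding.

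Across epithelial-like clusters the genes had different high points. Ratios are to all epithelial-like cells of the same library. Cluster 6 (led by Dcpp1, Cldn4 and Thrsp, with Mt1 and Mt2 among its top 10 genes) had Mt1 at 1.47 ± 0.19 and Mt2 at 1.61 ± 0.32 (SD, n = 5 libraries). Mt1 in that cluster stood at 663, 951, 2451, 3474 and 3298 CPM in fresh 10x 1, fresh 10x 2, stored 10x, BD 1 and BD 2. It was not the highest cluster in every library. In fresh 10x 1 cluster 4 had more, with Mt1 at 1173 and Mt2 at 213 CPM, against 80.5 for Mt2 in cluster 6. In stored 10x cluster 19 had more, with Mt1 at 2648 and Mt2 at 535 CPM, against 500 for Mt2 in cluster 6. The basal-keratin cluster 19 (Krt5, Krt14 and Krt17) had Mt1 at 1.31 ± 0.24, Hmox1 at 2.47 ± 0.94, Gclm at 1.63 ± 0.23 and Srxn1 at 1.74 ± 0.92 (SD, n = 5 libraries). Cluster 3 (led by Npy and Cck, with a median mitochondrial content of 18.9%) was low in Mt1, at 0.368 ± 0.065, and in Mt2, at 0.168 ± 0.068 (SD, n = 5 libraries), and cluster 1, mostly of fresh 10x 1, had Mt1 at 0.377 ± 0.152 (SD, n = 3 libraries). Nqo1 was at 1.84 ± 0.17 in cluster 0 (Spp1 and Npy) and 1.70 ± 0.33 in cluster 3, and at 0.567 ± 0.054 in cluster 6 (SD, n = 5 libraries). It was not opposite to Mt1 in every cluster. In cluster 2 both genes lay above the level of all epithelial-like cells in each 10x library. Nqo1 stood there at 73.5, 44.4 and 66.1 CPM in fresh 10x 1, fresh 10x 2 and stored 10x. The clusters were built from these cells, so these values are a description with no test.

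Other members had a cluster of their own. Txnrd1 was highest in the cycling cluster 15 (Ube2c, Birc5 and Top2a) in all 5 libraries, at 1.35 ± 0.045, where Gclm stood at 1.35 ± 0.037 (SD, n = 5 libraries). Fth1 was highest in the milk protein cluster 5 (Csn1s2a, Csn2 and Glycam1) in all 5 libraries, at 1.49 ± 0.18 (SD, n = 5 libraries). Gclc had its highest level in cluster 21 (Cited1, Tph1 and Areg) in stored 10x, BD 1 and BD 2, at 43.9, 173 and 106 CPM from 18, 39 and 17 UMIs. Its level over all epithelial-like cells was 12.4, 13.8 and 14.2 in those libraries. Cluster 21 holds 51 cells, 13 to 15 in each of these libraries, and the fresh 10x libraries had 4 and 6 of its cells.

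**Figure D5:**
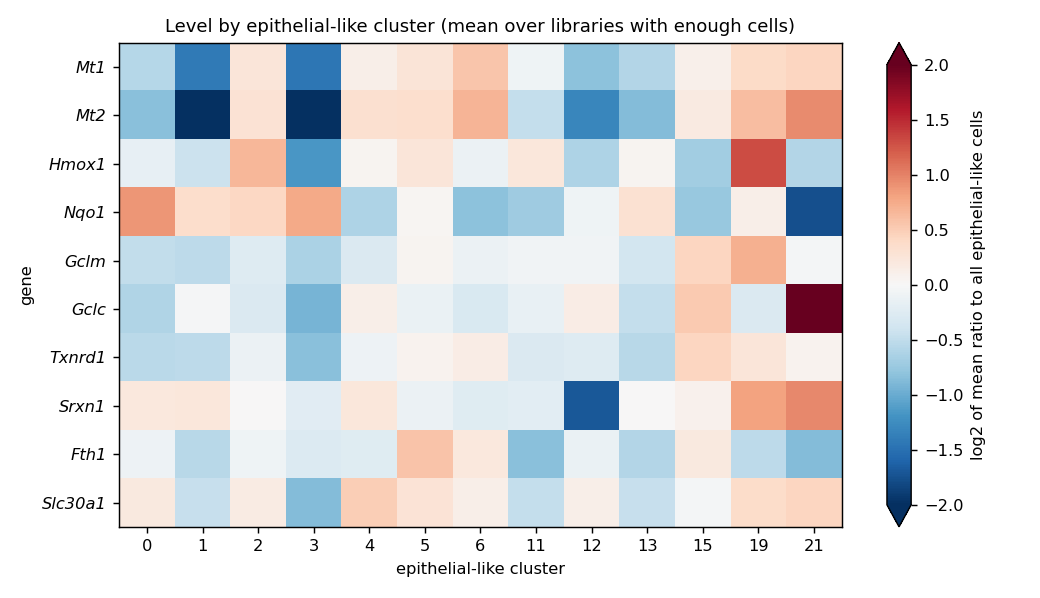
The log2 of the mean ratio of each gene's level in an epithelial-like cluster to its level in all epithelial-like cells, averaged over the libraries with enough cells of that cluster, with colours capped at 2 in either direction. Mt1 and Mt2 are high in clusters 6, 19 and 21 and low in clusters 1 and 3, Nqo1 is high in clusters 0 and 3, and Gclc stands out in cluster 21.

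The genes most like a member were those with the highest minimum r across epithelial-like cells over the 5 libraries, given where the fifth reached 0.15. For Mt1 they were Mt2, Gpx1, Grrp1, Fth1 and Abhd5, and after Mt2 the minimum r fell to 0.167. For Nqo1 they were Igfbp5, Itm2b, Pmepa1, Spp1 and Chil1 (minimum r 0.215 to 0.166). For Gclm they were Stmn1, H2afz, Slc25a5, Cfl1 and Ran (0.205 to 0.180), and for Fth1 they were Prdx1, Rpl15, Rpl7a, Npm1 and Rps15a (0.324 to 0.269). The other 6 members had no such list.

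Genes of 6 related pathways were read beside the members. In the storage comparison of epithelial-like cells none of the pathway genes tested passed edgeR's test: 0 of 15 metal handling genes, 0 of 10 NRF2 regulators, 0 of 16 glutathione genes, 0 of 14 thioredoxin and peroxide genes, 0 of 6 NADPH supply genes and 0 of 12 iron and haem genes. Over whole libraries Gstm1, a glutathione transferase gene, was the 1 that rose (log2 1.57, edgeR adjusted p = 0.049). In fibroblast-like cells 4 of the 15 glutathione genes tested rose and 2 fell on storage, where 12.9% of all genes were called, among them Gstm1 at 2.76 and Gstm2 at 0.94 and, lower, Gsto1 at -0.85 and Gsr at -0.69 (log2). The NADPH genes G6pdx and Pgd rose there by 1.34 and 0.72 and the superoxide dismutase gene Sod3 by 0.99 (log2), beside the change in the mix of fibroblast-like clusters given above.

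BD 1 against fresh 10x moved pathway genes both ways, and each count below is read against the 43.6% of all genes called. Of the thioredoxin and peroxide genes 4 were higher and 8 lower of 14, with Sod3 at 3.59, Sod1 at 2.19 and Prdx4 at -1.64 (log2). Of the glutathione genes 4 were higher and 4 lower of 16, with Gpx3 at 2.34 and Gpx4 at -1.16 (log2), a share close to that of all genes. Of the iron and haem genes 5 were higher and 4 lower of 12. Ftl1 was lower by -1.56 and Blvrb by -1.96 (log2), the same direction as Fth1, and Tfrc and Cp were higher by 1.10 and 1.07 (log2). Of the metal handling genes 4 were higher and 1 lower of 15, with the zinc importer gene Slc39a1 at 1.85 and the copper chaperone gene Ccs at -2.17 (log2), a share below that of all genes. The medians of the lists ran from -0.52 to 0.48, beside 0.01 for all genes tested.

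Between classes most genes were called, 60.8% in macrophage-like, 68.8% in fibroblast-like, 57.2% in endothelial-like and 54.6% in T-like cells, so the counts of a list say little by themselves. NRF2 regulators were higher in macrophage-like cells than in epithelial-like cells for 6 of 10 and lower for 1, with Nfe2l2, the gene of NRF2, at 2.99 and its competitor Bach1 at 2.33 (log2). Of the glutathione genes 5 were higher and 6 lower of 16 there. Slc7a11, the cystine importer gene, was higher by 4.21, and Gsta4, Gpx8 and Mgst1 were lower by -2.91, -2.49 and -2.22 (log2). NADPH supply genes were lower in endothelial-like cells for 6 of 6 and in T-like cells for 5 of 6, with Me1, the malic enzyme gene, at -3.38 and -2.17 (log2). Fibroblast-like cells had 5 glutathione genes higher and 8 lower of 16, with Gstm2 at 7.82, Gpx3 at 7.07 and Gpx8 at 6.11 (log2), and Sod3, an extracellular enzyme, at 6.74 (log2). The median of the glutathione list was -0.43 in fibroblast-like and -1.10 in T-like cells, beside 0.01 and -0.19 for all genes tested.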

How the data were processed

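The deposited matrices hold whole-number UMI counts per gene and cell, made by the authors with Cell Ranger 3.0.1 and the mm10 build, per the submitters' processing notes, which do not say which platform each served. Cells with at least 200 genes (15619 of 15958) were clustered with scanpy 1.11.5 (Leiden resolution 1.0). The 10 members and 76 listed pathway genes, 86 in all, were left out of the variable genes, but the dissociation genes were not. Clusters were named from marker lists. The doublet caller marked 0.211% of cells and did not work, so no cell was left out as a doublet. UMIs were summed per library and class and tested with edgeR 4.0.16 (quasi-likelihood, TMM scaling, its filter on low counts, Benjamini-Hochberg, threshold 0.05), after the fits were tested on simulated data. DESeq2 1.42.0 was an alternative. Members and lists were chosen with earlier results of these data known. All members were named, pathway genes from among the 4 largest changes per list past the threshold, and like genes by the highest minimum r over libraries. BD 2 entered no main storage or platform test, because its title and file names differ. It entered alternatives by title: grouped with BD 1 for platform, and in storage fits with all libraries or without a fresh replicate. Intervals and floors cover counting error only.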

Additional observations from a re-analysis of the deposited data

Results flagged for a closer look

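For 5 genes of the pathway and dissociation lists the storage difference in fibroblast-like cells differed from that in epithelial-like cells. This was by edgeR's interaction test (Benjamini-Hochberg adjusted over 12042 genes), where 238 genes, or 1.98%, were called. None of the 10 members was among them. Of 16 glutathione genes 1 was higher and 2 lower, and 1 of 15 metal handling genes was lower. Of 10 dissociation genes 1 was higher. Gstm1, a glutathione transferase gene, differed by 1.92 ± 0.23 (log2, SE, edgeR adjusted p = 6.7e-04), from 0.79 in epithelial-like to 2.76 in fibroblast-like cells. Atf3, an early stress gene, differed by 2.04 ± 0.35 (log2, SE, edgeR adjusted p = 0.0059). The zinc importer gene Slc39a14 differed by -1.33 ± 0.20 (log2, SE, edgeR adjusted p = 0.0022), from 0.62 to -0.67. Gpx3 differed by -1.38 (log2, edgeR adjusted p = 0.047) and Gsto1 by -0.88 (log2, edgeR adjusted p = 0.045). The mix of fibroblast-like clusters 16 and 20 differed between fresh and stored libraries, and the interaction was not fitted within them, so the part of that mix was not tested.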

How the results depend on the processing

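In epithelial-like cells Mt1 and Mt2 were called for storage under all 8 alternatives run (log2 1.36 to 1.49 and 1.55 to 1.83). Over the members, 667 of 755 alternative values were counted as unchanged. These kept their direction and, where an adjusted p was given, their side of the threshold. Values from fits without a test counted as unchanged if they lay within the SE of the reported value. Mural-like fits are not among these values or the reversals below, and interactions are among them for Mt1, Mt2 and Nqo1 only. The number of genes called was far less stable than Mt1 and Mt2 in epithelial-like cells. For storage over whole libraries it was 408 with DESeq2, 13 with all libraries in 1 fit, 12 to 42 without 1 fresh replicate, and 0 with no filter on low counts (edgeR, 2566 genes at an unadjusted p under 0.05). In epithelial-like cells it was 175 with DESeq2, 100 with no filter, 76 with stricter cell limits, 341 with all libraries in 1 fit, 127 at Leiden resolution 2.0, 102 without cluster 1 and 1125 to 1347 without 1 fresh replicate. With no filter it was 148 in macrophage-like, 326 in endothelial-like, 62 in mural-like and 66 in T-like cells, and for the interactions 84 in macrophage-like, 594 in fibroblast-like, 88 in endothelial-like, 14 in mural-like and 34 in T-like cells. Without 1 fresh replicate it was 113 to 188 in macrophage-like, 51 to 73 in endothelial-like and 0 in T-like cells (edgeR, 537 and 471 genes at an unadjusted p under 0.05), in fits where the lone sample is assumed to vary like the BD libraries. Every storage fit without 1 fresh replicate rests on that assumption, over whole libraries and in each class. Fibroblast-like clusters 16 and 20 alone gave 269 and 696. With the 10x libraries only, 4625 genes were called in macrophage-like and 4108 in T-like cells. The number of members with a UMI in over 50% of cells of every library went from 1 to 2 at 4000 UMIs and to 2 without thinning.

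The sign reversed for some members, none of them called in the reported fit or in the one that reversed (log2 values). Leaving out 1 fresh 10x library at a time, the storage difference over whole libraries ran from -0.15 to 0.029 for Hmox1, -0.13 to 0.10 for Txnrd1 and -0.22 to 0.061 for Fth1, with the higher value without fresh 10x 1. In epithelial-like cells it ran from -0.30 to 0.35 for Hmox1, -0.20 to 0.032 for Txnrd1 and -0.34 to 0.13 for Slc30a1. In macrophage-like cells it ran from -0.90 to 0.22 for Hmox1 and -0.36 to 0.26 for Gclm, in fibroblast-like cells from -0.47 to 0.19 for Gclc, in endothelial-like cells from -0.33 to 0.0066 for Nqo1 and -0.26 to 0.28 for Txnrd1, and in T-like cells from -1.11 to 0.13 for Gclm and -0.57 to 0.037 for Fth1. In epithelial-like cells Hmox1 was also 0.011 with no filter, 0.0015 with all libraries and 0.057 at resolution 2.0, where Slc30a1 was 0.041. In fibroblast-like cluster 16 Gclm was -0.31, Txnrd1 0.31, Srxn1 -0.015 and Fth1 -0.21, and in cluster 20 Hmox1 was -0.034, Srxn1 -0.21 and Fth1 -0.050. The macrophage-like interaction of Mt2 was -0.0075 with no filter. Between classes, leaving out 1 library at a time gave -0.083 to 0.28 for macrophage-like Mt1, -0.027 to 0.13 for fibroblast-like Gclc, -0.26 to 0.15 for fibroblast-like Fth1 and -0.078 to 0.12 for endothelial-like Srxn1. Macrophage-like Mt1 was -0.12 and T-like Gclc -0.28 at resolution 2.0, macrophage-like Txnrd1 was 0.088 with 10x only, and fibroblast-like Fth1 was 0.019 with DESeq2. With no filter fibroblast-like Gclc was -0.054 and endothelial-like Srxn1 -0.092, and the latter was -0.037 at resolution 2.0. Members that passed the threshold only under an alternative, beside those named with their results, were Mt2 in endothelial-like (2 of 3) and T-like cells (1 of 3) for storage, and between classes Txnrd1 in endothelial-like (2 of 9) and T-like cells (3 of 10), and Gclm (3 of 10) and Slc30a1 (1 of 10) in T-like cells. The cause was not tested.

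The replicate block could be fitted only with both BD libraries as 1 platform group by title, and gave 8576 genes against 8450 without it, with 6 members called in each; the replicate numbers pair nothing that the labels state. The interaction could not be fitted without a fresh replicate, and the platform comparison then gives values without a test. The endothelial-like comparison under stricter cell limits was not run, with too few cells in BD 2. Few cells limit the endothelial-like, mural-like and T-like values. The alternatives without cluster 1, within fibroblast-like clusters, and without a fresh replicate in classes other than epithelial-like were chosen after seeing the data.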
